A study of Mus musculus with 2 samples.

Results

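The pre-B cell receptor and recombination genes Vpreb1, Vpreb2, Vpreb3, Igll1, Cd79a, Cd79b, Blnk, Rag1, Rag2 and Dntt were read in whole bone marrow of a mouse carrying a splicing factor mutation and of a wild-type mouse. They were chosen by symbol, 10 genes of a table of 12860, and 9 of them are rows of it. Vpreb2 is not among these rows, so only its sequence was analysed here. The P95H library came from 1 female of 14 weeks with Srsf2 P95H on 1 allele (P95H KI/+). The WT library came from 1 male of 12 weeks with wild-type Srsf2 (+/+). Both mice were C57BL/6, carried the tamoxifen-dependent Cre recombinase R26CreERT2 and were treated with tamoxifen in vivo. This Cre is placed at the broadly expressed Rosa26 locus, so the mutation was not limited to the B lineage. The comparison addresses how the mutant splicing factor changes marrow transcripts. Genotype, sex, age and individual differ together and cannot be told apart, and with 1 library per group no difference below has a replicate check and no test was possible.

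B cells assemble their antigen receptor genes step by step in the marrow. In pro-B cells the nuclease made of Rag1 and Rag2 cuts the DNA beside heavy chain segments, which end joining proteins then join. Dntt, terminal deoxynucleotidyl transferase, adds bases at the joints. A finished heavy chain then pairs with the surrogate light chain, made of a Vpreb protein and Igll1 (lambda5), and with the signalling chains Cd79a and Cd79b to form the pre-B cell receptor, which signals through Blnk. Mature B cells lose Rag1, Rag2, Dntt, Igll1, Vpreb1 and Vpreb2, but keep Cd79a, Cd79b and Blnk for the B cell receptor itself. Vpreb3, a related protein that binds newly made chains inside the cell, lasts past the pre-B stage and was placed in neither class.

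A pair of the surrogate light chain genes, Vpreb1 and Vpreb2, are near copies of each other, and their sequences are shown because they bear on what the Vpreb1 count holds. The coding sequences of Vpreb1 and Vpreb2, both of 426 bases on chromosome 16 in the GENCODE M21 transcripts, differ at 9 bases and are 97.9% identical. Of the 75-base windows of the Vpreb1 transcript, the read length used here, 136 of 692 (19.7%) also occur in the Vpreb2 transcript. The 90-base coding stretch with the most differences, bases 298 to 387 counted from the start codon, reads as follows, with the 5 differing bases in capitals.
Vpreb1: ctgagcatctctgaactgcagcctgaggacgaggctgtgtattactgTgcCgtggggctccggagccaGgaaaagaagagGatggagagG
Vpreb2: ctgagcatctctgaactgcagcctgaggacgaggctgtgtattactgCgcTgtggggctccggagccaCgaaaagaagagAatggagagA
No source used here says how reads that fit both copies were counted, so the Vpreb1 value is uncertain.

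The promoters of 5 of the genes are shown because these genes are all used in the B lineage but at different stages. They are RefSeq sequences of 250 bases before to 50 after the start. Capitals mark 3 motifs searched on both strands: CCCNNGGG, the core read by Ebf1, CAGGTG, an E-box read by E proteins such as Tcf3, and ATTTGCAT, the octamer read by Oct proteins. No matches of different motifs overlapped.
Igll1 promoter, GRCm38.p6, chr16:16863936-16864235, minus strand: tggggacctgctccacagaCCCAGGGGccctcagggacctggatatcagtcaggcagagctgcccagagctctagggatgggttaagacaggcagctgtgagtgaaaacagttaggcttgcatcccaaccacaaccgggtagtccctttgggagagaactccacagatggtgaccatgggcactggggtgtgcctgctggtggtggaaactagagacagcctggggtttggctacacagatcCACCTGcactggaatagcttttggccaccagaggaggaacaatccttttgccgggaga
Vpreb1 promoter, GRCm38.p6, chr16:16869206-16869505, minus strand: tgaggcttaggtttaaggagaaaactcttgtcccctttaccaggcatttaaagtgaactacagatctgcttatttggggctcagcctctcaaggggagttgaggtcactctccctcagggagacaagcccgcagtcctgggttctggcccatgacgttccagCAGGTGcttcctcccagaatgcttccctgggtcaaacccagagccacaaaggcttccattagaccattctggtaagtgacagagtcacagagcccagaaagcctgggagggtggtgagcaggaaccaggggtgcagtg
Vpreb3 promoter, GRCm38.p6, chr10:75948050-75948349, plus strand: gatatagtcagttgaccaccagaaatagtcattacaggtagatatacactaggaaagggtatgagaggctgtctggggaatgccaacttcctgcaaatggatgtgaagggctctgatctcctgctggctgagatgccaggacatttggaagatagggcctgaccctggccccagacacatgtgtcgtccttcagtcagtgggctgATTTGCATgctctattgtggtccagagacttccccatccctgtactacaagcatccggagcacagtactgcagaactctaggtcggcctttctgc
Cd79a promoter, GRCm38.p6, chr7:24897247-24897546, plus strand: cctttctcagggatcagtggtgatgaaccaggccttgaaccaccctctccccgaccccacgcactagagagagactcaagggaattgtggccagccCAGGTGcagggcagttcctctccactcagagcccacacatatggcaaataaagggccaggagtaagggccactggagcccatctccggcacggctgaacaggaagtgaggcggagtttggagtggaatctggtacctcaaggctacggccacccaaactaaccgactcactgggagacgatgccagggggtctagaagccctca
Blnk promoter, GRCm38.p6, chr19:40994172-40994471, minus strand: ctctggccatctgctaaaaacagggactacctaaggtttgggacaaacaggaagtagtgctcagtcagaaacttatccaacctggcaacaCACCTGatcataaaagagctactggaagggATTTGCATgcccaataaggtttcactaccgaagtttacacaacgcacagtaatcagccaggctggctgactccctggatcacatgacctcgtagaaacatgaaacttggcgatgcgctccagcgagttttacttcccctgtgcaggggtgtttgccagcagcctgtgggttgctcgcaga
Promoters of 9 of the 10 genes were matched, Cd79b being the other. The E-box occurred in 6 of the 9 (Igll1, Vpreb1, Vpreb2, Rag1, Cd79a and Blnk) and in 20.2% of all 32851 promoters in the RefSeq table. The Vpreb1 and Vpreb2 matches lie in a stretch that these near copies share, so the 6 are not 6 separate cases. The octamer occurred in Vpreb3, starting 45 bases before the start, and in Blnk, 130 bases before it, and in 1.74% of all promoters. The Ebf1 core occurred in Igll1 alone among the 9, and in 13.7% of all promoters. The E-box lay in genes of both stage classes, and 2 of the 9, Rag2 and Dntt, held none of the 3 motifs. A match describes letters and shows no binding.

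All 12 genes checked as marrow markers were listed, and depth was similar, with 42366695 counts in P95H marrow against 44733445 in WT marrow. Srsf2, which is edited in place, had 9162 counts (231 CPM) in P95H marrow against 10767 counts (225 CPM) in WT marrow, so its level checks no label. CPM is a count divided by the authors' scaled library size. Differences are P95H minus WT on log2(CPM + 1), which understates the difference of low genes, and brackets hold 95% counting intervals of the CPM ratio, P95H over WT. In bulk marrow, fewer cells of a type and less RNA per cell cannot be told apart. The 7 neutrophil genes of that list were all higher in P95H marrow, by 0.40 to 1.16, with a summed level of 91279 CPM against 48392 CPM in WT marrow, and the 4 red cell genes were all lower. Ltf was at 1.16, S100a9 at 0.99, Hba-a2 at -1.17 and Mpo at 0.40. The part of these shifts in the results below was not tested.

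All 9 listed genes were lower in P95H marrow. At a difference of -1 or below, called at least 2-fold lower, stood 7 of the 9 and 2.1% of all genes, and at 1 or above stood 0 of the 9 and 1.76% of all genes. Below 0 lay 9 of 9, as did 50.3% of all genes. By the plain CPM ratio, 9 of 9 were at 0.5 or less, as were 4.99% of all genes, and 7 of 9 had a counting interval wholly below 0.5, as had 2.31% of all genes. The 7 were Cd79a, Cd79b, Vpreb3, Rag1, Blnk, Dntt and Rag2, while Igll1 and Vpreb1 lay between -1 and 0. The median difference was -1.26, and that of all 12860 genes was -0.0035. Together the 9 genes held 6582 counts in P95H marrow against 23781 in WT marrow, a sum of 166 CPM in P95H marrow and 497 CPM in WT marrow with a ratio of 0.334 (0.325 to 0.343). Every listed gene was above 1 CPM in both libraries, so none entered the table through the WT library alone. The share of all genes called depends on scaling: 226 higher and 270 lower here became 134 higher and 463 lower with plain totals of listed counts, and 178 higher and 477 lower once haemoglobin and the 20 most abundant genes were left out of the totals.

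**Figure D1:**
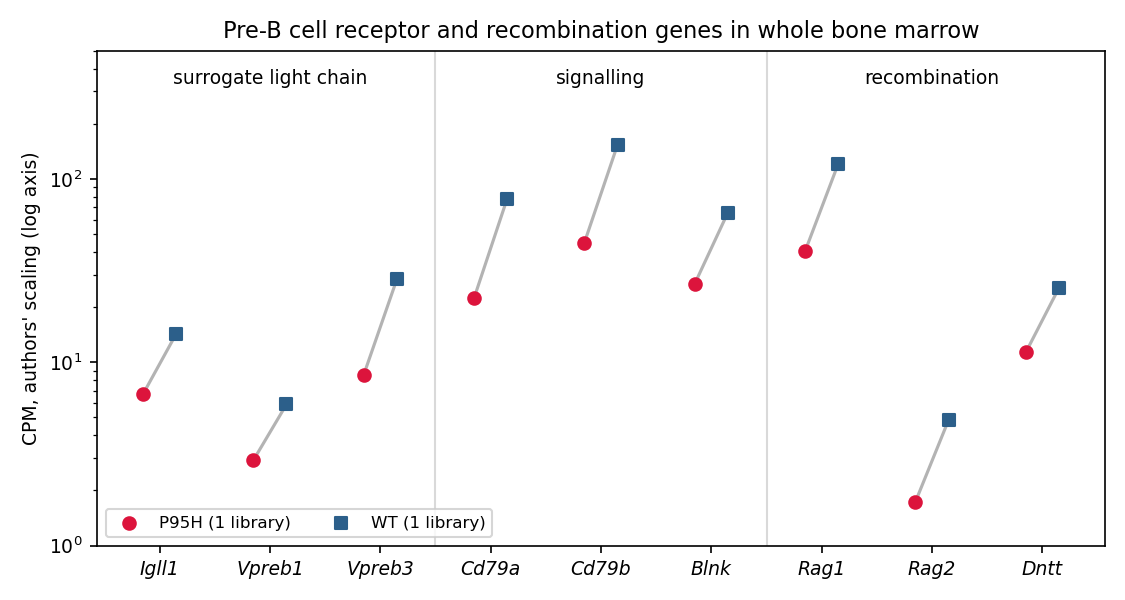
CPM of the 9 listed genes in P95H marrow (red circles, left) and the WT library (blue squares, right), on a log axis, grouped by role, with 1 library per group and no error bars. Every red circle lies below its blue square, from Rag2 at 1.74 CPM in P95H marrow against 4.85 CPM in WT marrow to Cd79b at 44.9 CPM in P95H marrow against 153 CPM in WT marrow.

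The surrogate light chain genes were lower by unequal amounts. Igll1, the lambda5 chain, had 266 counts (6.70 CPM) in P95H marrow against 683 counts (14.3 CPM) in WT marrow, giving a CPM ratio of 0.470 (0.406 to 0.542) and a log2 difference of -0.99. Vpreb1, its partner, had 116 counts (2.92 CPM) in P95H marrow against 282 counts (5.89 CPM) in WT marrow, giving a CPM ratio of 0.496 (0.396 to 0.618) and a log2 difference of -0.81. These were the 2 smallest differences of the 9, both just short of -1, and both intervals hold a ratio of 0.5. The count of Igll1 per count of Vpreb1 was 2.29 in P95H marrow against 2.42 in WT marrow, a ratio of ratios of 0.947 (0.726 to 1.24), so counting error covers any difference between the pair. Vpreb3 had 339 counts (8.54 CPM) in P95H marrow against 1356 counts (28.3 CPM) in WT marrow, giving a CPM ratio of 0.302 (0.267 to 0.340) and a log2 difference of -1.62. It was more reduced than both relatives: its count per Igll1 count was 1.27 in P95H marrow against 1.99 in WT marrow, a ratio of ratios of 0.642 (0.531 to 0.776). Per count of Vpreb1 the ratio of ratios was 0.608 (0.472 to 0.786). Set against Cd79a it was 1.05 (0.911 to 1.21), so Vpreb3 lay with Cd79a and apart from Igll1 and Vpreb1. The CPM ratio interval of Vpreb3 also overlapped that of the stage-limited Rag1, at 0.334 (0.316 to 0.353). It lay wholly below that of the kept gene Blnk, at 0.409 (0.382 to 0.439).

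The signalling chains had the largest differences of the listed genes. Cd79a (Ig-alpha) had 889 counts (22.4 CPM) in P95H marrow against 3738 counts (78.1 CPM) in WT marrow, giving a CPM ratio of 0.287 (0.266 to 0.309) and a log2 difference of -1.76. Only 38 of all 12860 genes had a lower difference. Cd79b (Ig-beta) had 1784 counts (44.9 CPM) in P95H marrow against 7346 counts (153 CPM) in WT marrow, giving a CPM ratio of 0.293 (0.278 to 0.309) and a log2 difference of -1.75. The proteins work as a dimer, and the count of Cd79a per count of Cd79b was 0.498 in P95H marrow against 0.509 in WT marrow, a ratio of ratios of 0.979 (0.894 to 1.07). Blnk, the adaptor that links the activated receptor to Btk and Plcg2, had 1065 counts (26.8 CPM) in P95H marrow against 3137 counts (65.5 CPM) in WT marrow, giving a CPM ratio of 0.409 (0.382 to 0.439) and a log2 difference of -1.26. Its interval lies wholly above those of Cd79a and Cd79b, so beyond counting error Blnk was less reduced than the chains it serves. This holds for bulk marrow, where the cells that held each transcript were not separated.

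The 3 recombination genes all passed the 2-fold limit, downwards, as did 2.1% of all genes. With 5 CPM added in place of 1, Rag1 was at -1.47, but Dntt at -0.90 and Rag2 at -0.55 fell short of it. Rag1 had 1604 counts (40.4 CPM) in P95H marrow against 5789 counts (121 CPM) in WT marrow, giving a CPM ratio of 0.334 (0.316 to 0.353) and a log2 difference of -1.56. Rag2 had 69 counts (1.74 CPM) in P95H marrow against 232 counts (4.85 CPM) in WT marrow, giving a CPM ratio of 0.359 (0.270 to 0.471) and a log2 difference of -1.09. The genes lie next to each other and their proteins act as 1 complex, and the count of Rag1 per count of Rag2 was 23.2 in P95H marrow against 25.0 in WT marrow, a ratio of ratios of 0.932 (0.705 to 1.24). Their unequal differences on the log2(CPM + 1) scale therefore come with CPM ratios that counting error does not separate. Dntt had 450 counts (11.3 CPM) in P95H marrow against 1218 counts (25.4 CPM) in WT marrow, giving a CPM ratio of 0.446 (0.399 to 0.497) and a log2 difference of -1.10. Relative to Rag1, Dntt was higher in P95H marrow, at 0.281 counts per Rag1 count against 0.210 in WT marrow, a ratio of ratios of 1.33 (1.18 to 1.51). In GENCODE M21 the exons of B230118H07Rik share 80 bases with those of Rag1 on the same strand and 208 with those of Rag2 on the other. That gene had 189 counts in P95H marrow against 276 in WT marrow, a difference of -0.23. Developing T cells also use Rag1, Rag2 and Dntt. Of 14 T cell and thymocyte genes, 13 were listed, all 13 below 0 with a median of -0.44 and a summed level of 28.9 CPM in P95H marrow against 45.8 CPM in WT marrow, and the thymocyte gene Ptcra was not among the listed rows. Differences in that list ran from -1.11 for Trbc1 to -0.28 for Cd3g, with Cd8b1 at -0.83 and Trbc2 at -0.67. Their part in the Rag1, Rag2 and Dntt differences was not tested.

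**Figure D2:**
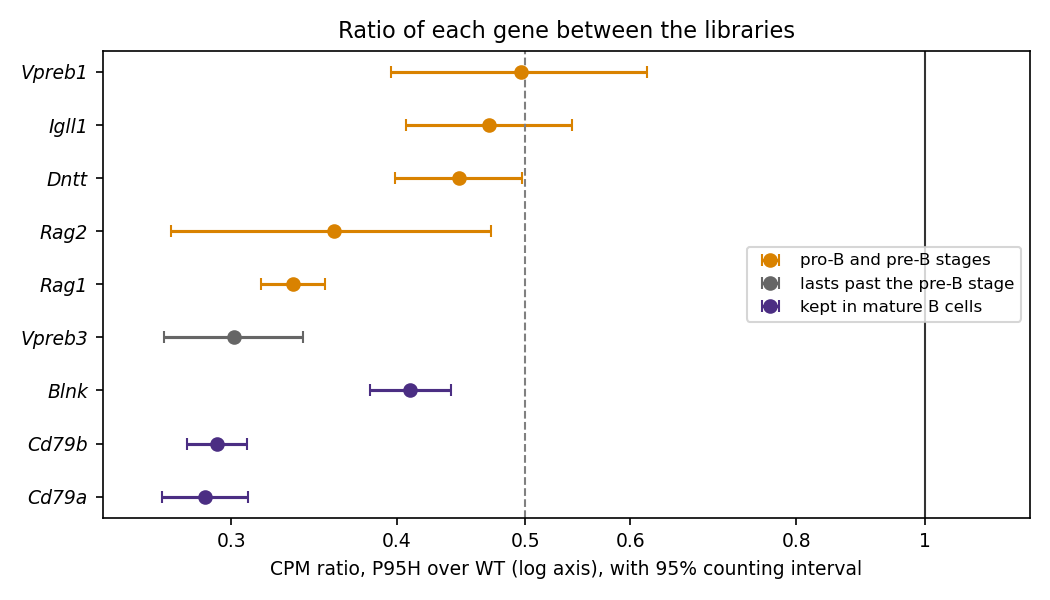
CPM ratio of P95H over WT for the 9 listed genes on a log axis, with 95% counting intervals as bars, a dashed line at 0.5 and a solid line at 1. Igll1 and Vpreb1 have intervals that cross 0.5, and Cd79a, Cd79b and Vpreb3 lie lowest, near 0.3.

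Genes limited to the pro-B and pre-B stages were, at the median, less reduced than genes kept in mature B cells, with overlap between the classes. The 5 listed stage-limited genes (Vpreb1, Igll1, Rag1, Rag2 and Dntt) had a median difference of -1.09, and the 3 kept genes (Cd79a, Cd79b and Blnk) a median of -1.75, 0.65 apart. All listed stage-limited genes other than Rag1 had a lower CPM than every kept gene in both libraries, and the added 1 CPM shrinks differences of low genes, but on the log2 ratio with nothing added the medians were -1.17 and -1.77, 0.61 apart. Within each library, which needs no scaling, stage-limited genes summed to 2505 counts against 3738 for kept genes in P95H marrow (0.670 per count). In the WT library they summed to 8204 against 14221 (0.577 per count), a ratio of ratios of 1.16 (1.10 to 1.23). Rag1 held 24.4% (23.3 to 25.4) of the counts of all 9 genes in P95H marrow against 24.3% (23.8 to 24.9) in WT marrow, and so weighed on these sums. With Vpreb1 and Igll1 alone against the kept genes the ratio of ratios was 1.51 (1.33 to 1.71).

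The pairs of genes show where the class boundary held. Of 15 pairs of a stage-limited and a kept gene, the ratio of ratios had an interval wholly above 1 in 8, an interval holding 1 in 6, and one wholly below 1 in 1. All of the 8 had Cd79a or Cd79b as the kept gene, with values from 1.14 (Rag1 per Cd79b) to 1.73 (Vpreb1 per Cd79a). Rag2, with the fewest counts, held 1 in all 3 of its pairs. Against Blnk, no stage-limited gene was above 1 beyond counting error, and Rag1 per Blnk count was 1.51 in P95H marrow against 1.85 in WT marrow, a ratio of ratios of 0.816 (0.746 to 0.893). The difference between classes therefore rests on Cd79a and Cd79b, and Blnk lay among the stage-limited genes.

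Per kilobase of exon, which allows levels of different genes to be compared, Cd79b was highest in both libraries, at 31.4 CPM per kilobase in P95H marrow against 107 in WT marrow. Cd79a followed at 15.4 CPM per kilobase in P95H marrow and 53.6 in WT marrow. Below them Blnk (12.8) came before Vpreb3 (9.94) in P95H marrow, while in WT marrow Vpreb3 (33.0) came before Blnk (31.2). Igll1 (7.70) likewise came before Rag1 (6.11) in P95H marrow, and Rag1 (18.3) before Igll1 (16.4) in WT marrow. Dntt had 5.32 CPM per kilobase in P95H marrow against 11.9 in WT marrow, and Vpreb1 had 3.81 in P95H marrow and 7.69 in WT marrow. Rag2 was lowest in both, at 0.508 in P95H marrow against 1.42 in WT marrow. Lengths are from GENCODE M21 on GRCm38 and not from the annotation used for counting, and with 1 library per group the spread around neighbours in this order is unknown.

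Other genes of the same stages moved less uniformly. Of 12 listed genes from a list of 13 other pro-B and pre-B genes, 5 lay at -1 or below, 1 at 1 or above and 6 in between (median -0.87). Ly6d, a surface marker of B-committed progenitors, had 1234 counts in P95H marrow against 4512 in WT marrow (difference -1.57), and the scaffold gene Akap12 2280 in P95H marrow against 7676 in WT marrow (-1.46). Bst1 (CD157), which neutrophils also express, had 4246 counts in P95H marrow against 1685 in WT marrow (1.58), while Cd24a, abundant in red cell precursors as well, was at -0.29. Of 13 B lineage regulators, 8 lay at -1 or below and 5 in between (median -1.32). Ikzf3 had 1052 counts in P95H marrow against 4280 in WT marrow (-1.72), Pax5, which holds cells in the B lineage, 407 in P95H marrow against 1623 in WT marrow (-1.63), and Irf4 2623 in P95H marrow against 9884 in WT marrow (-1.63). Runx1, used across blood lineages, was at -0.05.

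Most signalling and end joining partners lay between -1 and 1, unlike most of the 9 genes. Of 16 pre-B and B cell receptor signalling genes, 1 lay at -1 or below and 15 in between (median 0.12). The 1 was the B cell kinase gene Blk, with 392 counts (9.87 CPM) in P95H marrow against 1727 counts (36.1 CPM) in WT marrow (-1.77). Vav2, a signalling exchange factor gene, had 398 counts in P95H marrow against 809 in WT marrow (-0.70), and the Src family kinase gene Fyn 813 in P95H marrow against 1480 in WT marrow (-0.57). Btk and Plcg2, which Blnk links to the receptor, were at 0.05 and 0.31, named after their values were seen. Pik3ap1, which myeloid cells share, was at 0.01. Of 14 end joining and recombination partners, which finish the breaks made by Rag1 and Rag2 and serve DNA repair in all cells, 1 lay at -1 or below and 13 in between (median -0.15). Lig4, the ligase that seals the joints, had 327 counts in P95H marrow against 879 in WT marrow, giving a CPM ratio of 0.449 (0.394 to 0.510) and a log2 difference of -1.07. Its partner Xrcc4 had 519 counts in P95H marrow against 358 in WT marrow (0.73), the lymphoid polymerase gene Polm was at -0.79, and H2afx was at -0.01.

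The heavy and light chain constant regions of the B cell receptor differed from each other, 5 of 6 being lower in P95H marrow and 1 higher. Of 6 immunoglobulin constant regions, 4 lay at -1 or below and 2 in between (median -1.12). Ighm, the heavy chain of pre-B and B cell receptors, had 15401 counts in P95H marrow against 46482 in WT marrow (-1.32), and Ighd, made by mature B cells, 245 in P95H marrow against 1677 in WT marrow (-2.33). Among light chains, which replace the surrogate light chain, Iglc3 was at -1.23 and Iglc1 at 0.22, with 1614 counts in P95H marrow against 1662 in WT marrow (CPM ratio 1.17, 1.09 to 1.26), Iglc1 being named after its value was seen. The light chain gene Igkc was at -0.07, with 28392 counts in P95H marrow against 36023 in WT marrow. Of the 10 mature B cell genes, 7 lay at -1 or below and 3 in between (median -1.80), with Cxcr5 at -2.49, Fcmr at -2.35 and Fcer2a at -2.33. Cd37, which other leukocytes also express, was smallest in size and the 1 gene of the 10 above 0, at 0.16, with 112 CPM in P95H marrow against 99.8 CPM in WT marrow. Of 7 plasmacytoid dendritic cell genes, a cell type that can carry Rag1 and Dntt transcripts, 1 lay at -1 or below and 6 in between (median -0.43). Their summed level was 125 CPM in P95H marrow against 132 CPM in WT marrow. Irf7 held 53.6 CPM of the sum in P95H marrow and 27.0 CPM in WT marrow. Below 0 lay 5 of the 7 genes, and 2 lay above it. Siglech, the defining surface gene of these cells, was at -1.17, Ccr9 at -0.90 and the interferon-induced Irf7 at 0.96, with Klk1 smallest in size at -0.07. Their part in the Rag1 and Dntt differences was not tested.

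**Figure D3:**
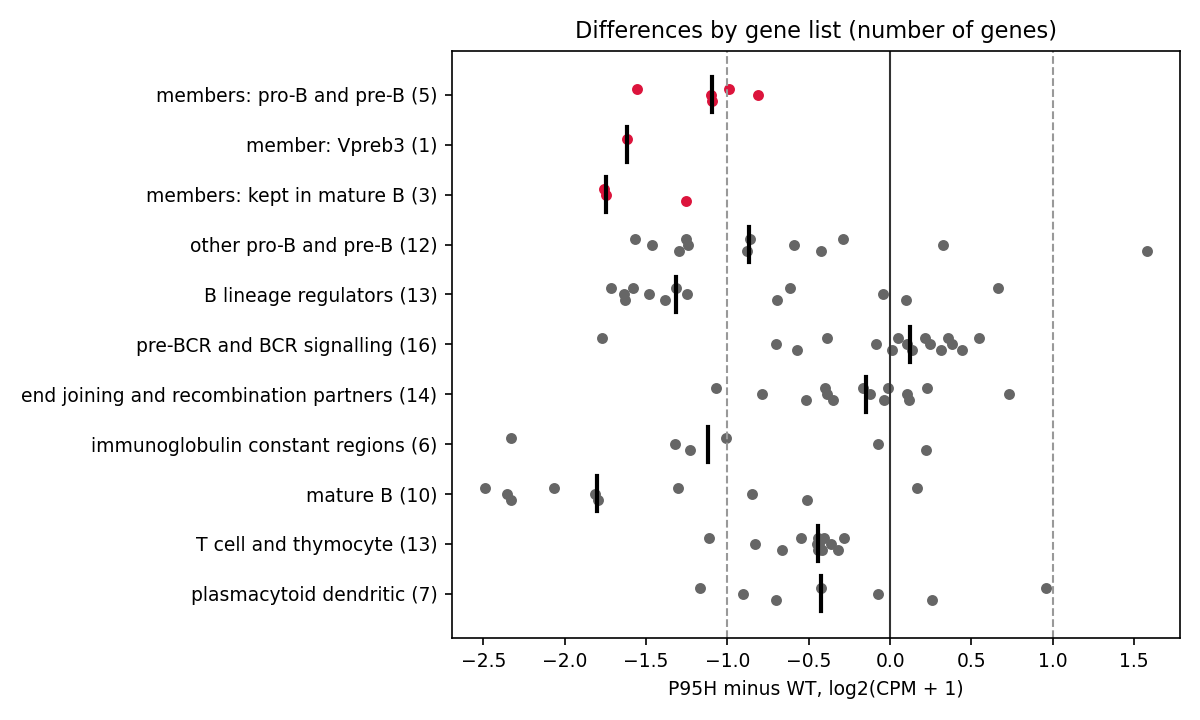
Difference P95H minus WT on log2(CPM + 1) for each gene, by list, with the median as a black bar, dashed lines at -1 and 1, and the number of genes in brackets. The 9 genes (red) all lie left of 0, with the kept genes at a median of -1.75 near the mature B list at -1.80, and signalling and end joining partners centred near 0.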

How the data were processed

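Total RNA of whole, unsorted bone marrow from 1 P95H and 1 WT mouse was cleared of ribosomal RNA before stranded library preparation and 75 bp paired-end sequencing in 1 run, per the labels' protocols. Tools named without roles in the submitters' processing notes are STAR 2.5.3a, featureCounts, edgeR, Picard 1.96, cutadapt and Trim Galore, and the build is mm9. Strand use in counting and the treatment of multi-mapping reads are not given in the sources used here. The authors deposited raw counts per gene. Their deposited CPM is treated here as a score because its columns sum to 1067265 (P95H) and 934268 (WT), that is, it uses scaled library sizes. Every gene listed has a CPM above 1 in a library. The deposited log2 fold change, linear fold ratio and mean CPM columns were not used.

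Differences are log2(CPM + 1), P95H minus WT, and at least 2-fold means a size of 1 or more. Ratios have exact conditional (Clopper-Pearson) 95% intervals, and ratios of 2 within-library ratios exact conditional 2 by 2 intervals (SciPy 1.17.1). They cover counting error only, since each group has 1 library and no spread between mice enters them. Reads also carry no molecular identifiers here. Shares of counts have exact binomial (Clopper-Pearson) intervals. Motifs, transcript likeness, lengths and exon overlaps come from RefSeq GRCm38.p6 and GENCODE M21, a build other than mm9. Counts were divided by exon lengths of that other build for the levels per kilobase. The counts of B230118H07Rik were set beside exon overlaps from it.

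Groups came from the genotype label. The genes, classes and lists were chosen with earlier results of these data known. Named from each list are the 3 largest absolute differences and the smallest. Some genes of these lists are not reported here and were left out of the counts by list. Alternatives covered pseudocount, scaling, filters, fold size, class membership and summaries. In counting-noise data simulated for the P95H against WT comparison over 12860 genes, the 2-fold rule called 50 of 50 genes changed 3-fold, 0 of 50 changed 1.5-fold and 0 of 12660 left alone, and 95.5% of intervals covered the ratio put in. The changed genes were drawn only from genes above a limit of mean CPM that Rag2 and Vpreb1 do not reach. No change of 2-fold was simulated. These calls therefore do not describe low genes or genes near the limit of the rule.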

Additional observations from a re-analysis of the deposited data

How the results depend on the processing

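Each of the 9 genes stayed below 0 in all 61 differences under the alternatives, 19 of which moved beyond the counting interval. Only a change of scaling could have reversed a sign. A pseudocount cannot do so, and the filters left each kept difference as it was. Scaling moved the median of all genes by -0.17 with plain totals and by -0.13 when haemoglobin and the 20 most abundant genes were left out of them, and the genes moved with it. The number at least 2-fold lower was 8 with a pseudocount of 0.1 (4.61% of all genes), with plain totals (3.6%) and with totals without the most abundant genes (3.71%), 5 with a pseudocount of 5 (0.832%), 6 among the 7 genes with a CPM of at least 10 (1.82%), 9 at 1.5-fold (8.08%), and 0 at 4-fold (0.187%). The median of the kept genes was -1.60 with a pseudocount of 5, -1.94 with plain totals, -1.89 with totals without the most abundant genes, and -1.59 as a mean. The ratio of summed counts, stage-limited over kept, was 1.16 as reported. It was 1.31 without the most abundant gene of each class and 1.51 without Rag1, Rag2 and Dntt. Without Blnk, a choice made after seeing the data, it was 1.27. Fewer genes enter each of these alternative sums. With Vpreb3 counted as stage-limited the ratio was 1.13, and with Vpreb3 counted as kept it was 1.17. The gap between the classes, 0.65 as reported, ran from 0.48 with means in place of medians to 0.88 with a pseudocount of 5. Counting intervals of Rag2 and Vpreb1 are the widest, so depth limits them most. Summing Vpreb1 with Vpreb2 was not run, since Vpreb2 is not among the listed rows and no counts of it were analysed here. No replicate could be left out, and no paired analysis was possible because each group has 1 library.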
